A study of Mus musculus with 4 samples.

Results

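The genes described here build the muscle side of the neuromuscular junction. They are 10 genes, chosen by name: the muscle acetylcholine receptor subunits Chrna1, Chrnb1, Chrnd, Chrng and Chrne, and the organisers Agrn, Lrp4, Musk, Dok7 and Rapsn. Every probe that the array's annotation gives to one of these names was taken, which made 13 of the 55681 probes, for 10 of 23110 named genes. RNA came from C2C12 cells, a mouse myoblast line that divides in growth medium and can fuse into myotubes. The cells were transfected with siRNA against Fxr1 (siFxr1), which encodes the RNA-binding protein FXR1P, or with a control siRNA (siControl), and RNA was taken 48 hours later. Each condition was measured once in each of 2 experiments, on 4 one-colour Agilent arrays, and both conditions of an experiment shared a slide, so that experiment and slide cannot be told apart. All 4 samples are the same cell line and carry no engineered allele that the labels name.

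In developing muscle the receptor is a pentamer of alpha, beta, delta and gamma subunits, and after innervation the gamma subunit (Chrng) is replaced by the epsilon subunit (Chrne). Agrin, released by the nerve and also made by muscle, binds LRP4, which activates the kinase MuSK. DOK7 binds and activates MuSK from inside the cell, and rapsyn anchors the receptors in clusters. Receptor subunit genes are switched on when myoblasts differentiate, through E-boxes in their promoters that bind MyoD family factors. Junctional nuclei also use N-boxes, which bind Ets factors of the GABP type.

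The probe for the fetal subunit is shown because the experiments differed in its signal. It joins blocks within chr1:89106072-89106353 of mm9 on the plus strand, a span of 282 bases, and is 60 bases long, with a GC content of 55%.
Chrng probe: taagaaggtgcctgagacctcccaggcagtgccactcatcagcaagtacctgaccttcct

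Bases upstream of the transcript start are shown for the 3 subunits on which the motif description turns, from RefSeq on GRCm38.p6, with E-box letters (CANNTG, the same on both strands) and N-box letters (CCGGAA, either strand) in capitals. Of the 10 genes, 7 were matched, with 9 transcript starts. Chrnd, Lrp4 and Rapsn were not listed. Where the window ran into the annotated gene, those bases are not printed, as for Chrne, but they were searched.
Chrng, chr1:87205561-87205810, plus strand: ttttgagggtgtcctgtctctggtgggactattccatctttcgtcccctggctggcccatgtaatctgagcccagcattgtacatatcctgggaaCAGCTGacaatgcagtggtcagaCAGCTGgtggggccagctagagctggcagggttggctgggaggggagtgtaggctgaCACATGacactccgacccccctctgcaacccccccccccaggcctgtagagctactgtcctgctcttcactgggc
Chrna1, chr2:73580339-73580588, minus strand: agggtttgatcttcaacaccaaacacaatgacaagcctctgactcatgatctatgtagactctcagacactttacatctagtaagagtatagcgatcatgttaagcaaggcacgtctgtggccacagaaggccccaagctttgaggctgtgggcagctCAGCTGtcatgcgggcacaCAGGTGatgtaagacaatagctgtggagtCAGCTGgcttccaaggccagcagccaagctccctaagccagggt
Chrne, chr11:70619214-70619444, minus strand: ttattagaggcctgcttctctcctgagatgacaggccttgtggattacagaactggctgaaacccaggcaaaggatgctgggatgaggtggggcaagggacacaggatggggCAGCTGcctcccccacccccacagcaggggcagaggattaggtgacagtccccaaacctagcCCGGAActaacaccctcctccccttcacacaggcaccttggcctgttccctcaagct

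In the full window of 250 bases before the transcript start, inside or outside the annotated gene, Chrna1, Chrnb1, Chrng and Musk each held 3 E-boxes, a number that 12.2% of the 32851 mouse promoters in the table reached or passed in the same window. All 3 lay outside the annotated gene in Chrna1 and Chrng, 2 of 3 in Chrnb1 and 0 of 3 in Musk. Of the E-boxes of Chrng and of Chrna1, 2 in each read CAGCTG, as did 1 in Chrne and 1 in Musk. At least 1 of this form was found in 13% of all promoters. The 3 E-boxes of Chrng began at -155, -132 and -75 from the start. Chrne held 1 E-box at -138 and 1 N-box at -76, and no other matched member held an N-box, against 12% of all promoters. Dok7 and Agrn each held 1 E-box, inside the annotated gene, at 1 of their 2 starts and 0 at the other, and 66.2% of all promoters held at least 1. The letters are a description of the sequence, and no binding was measured.

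**Figure D1:**
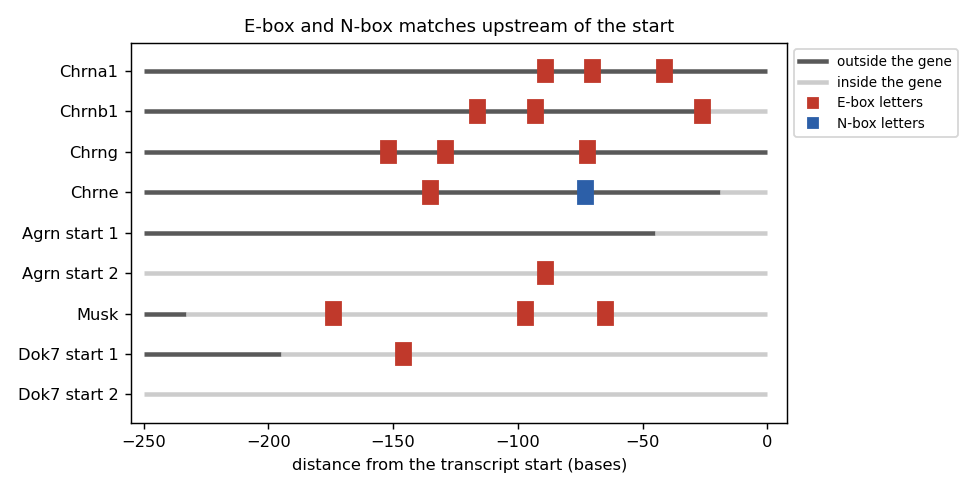
Position of E-box (red) and N-box (blue) letters in the 250 bases before each transcript start, 1 line per start, dark outside and light inside the annotated gene, with the distance from the start in bases on the x axis. Chrna1, Chrnb1, Chrng and Musk hold 3 E-boxes each, those of Musk all inside the gene, and Chrne holds the N-box at -76.

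The arrays measured the knockdown, and the signal of muscle markers was not the same in both experiments. The probes of Fxr1 itself were lower in siFxr1 by -3.61 (SE 0.28) and -3.31 (SE 0.29) on the log2 scale, with the same direction in both experiments. Neither probe passed the test (limma adjusted p = 0.950 for each), so this fit did not call even the targeted gene. Between 45.4% and 52.9% of the probes were well above background, a mark that the scanner software gives, and 0 spots were saturated. Of 6 myoblast markers, 5 were above background and Myf5 was not. All 12 myotube markers, such as Acta1 and Ckm, were above background, and all 12 were higher in both arrays of experiment 1 than in both of experiment 2, with a median difference of 2.29 (log2). Their summed linear signal was 553321 and 592769 in siFxr1 and siControl of experiment 1 and 123876 and 123881 in experiment 2. In bulk RNA, fewer cells of a type and less RNA per cell cannot be told apart. Nor can either be told apart here from a difference between the slides. Of the motor neuron markers, 4 of 10 were above background, Stmn2 and Isl1 on all 4 arrays and Nefh and Slc18a3 on 3. Stmn2 had the highest signal in this list, at 14.81 and 14.79 in siFxr1 and 15.64 and 14.88 in siControl (log2). Lhx3, Nefm, Chat, Nefl, Mnx1 and Slc5a7 were above background on 0 arrays. Of the Schwann cell markers, 5 of 8 were above background. Sox10 was not, and the summed signal of the list was 6158 and 4301 in siFxr1 and 1410 and 1964 in siControl. Egr2, at 12.43 and 11.91 in siFxr1 and 10.11 and 10.73 in siControl (log2), had the highest signal in this list. Ngfr read 8.42 and 6.01 in siFxr1 and was not well above background in siControl. Averaged over the experiments it was at least 6.26-fold higher in siFxr1, with a smaller bound within experiment 2. Neither gene passed the test (limma adjusted p = 0.950 for Egr2 and 0.975 for Ngfr). The part of these markers in the differences between conditions was not tested. RNA integrity was 8 in siFxr1 of experiment 1 and 9 in the other samples.

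Of the 13 probes, 11 were well above background on all 4 arrays, and these covered 9 of the 10 genes. Chrne and the second probe of Agrn were above background on 0 arrays. All signals below are quantile-normalized log2 values. A probe's level cannot be set against that of another probe, so only differences between arrays are compared.

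**Figure D2:**
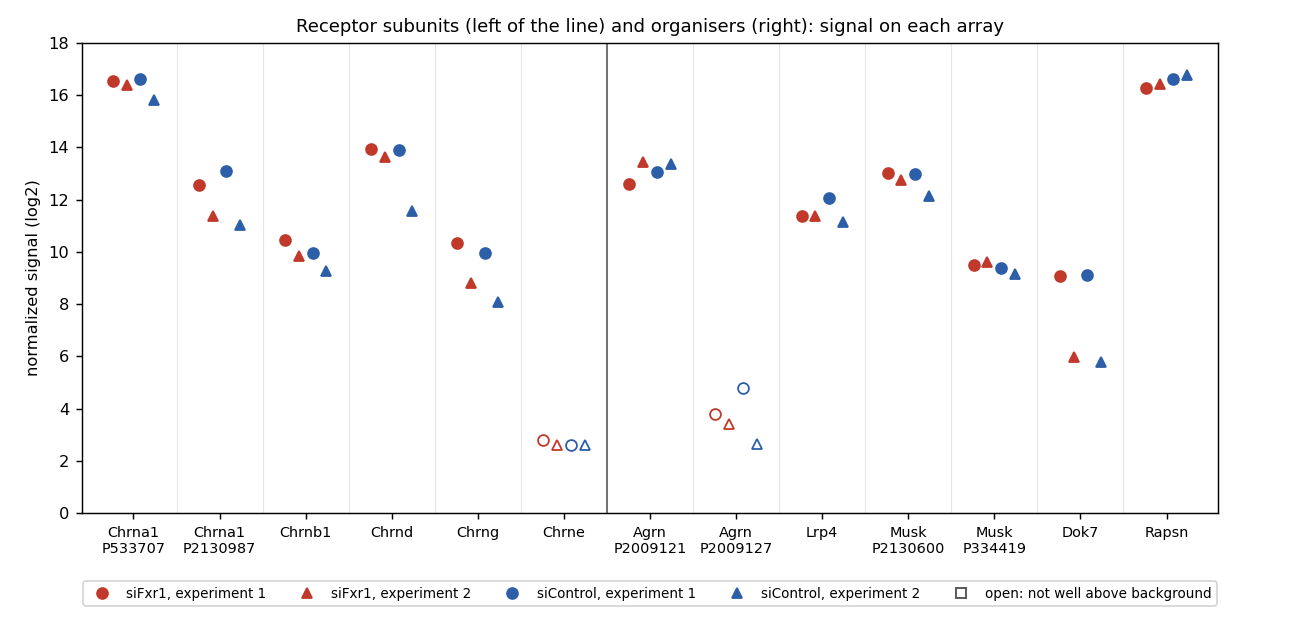
Normalized log2 signal of the 13 probes on each array, with siFxr1 in red and siControl in blue, circles for experiment 1 and triangles for experiment 2, and open symbols where the spot was not well above background. Dok7 and Chrng lie higher in both arrays of experiment 1, and siControl of experiment 2 is the low sample of Chrnd.

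Chrna1 encodes the subunit that carries most of the acetylcholine binding site. Its brighter probe (A_52_P533707, chr2:73404112-73404171 of mm9, minus strand) read 16.54 and 16.37 in siFxr1 and 16.60 and 15.82 in siControl, experiment 1 first as in every pair of values here. The conditions overlapped, and the difference was 0.24 (SE 0.34, limma adjusted p = 0.975). The other probe (A_55_P2130987, chr2:73401389-73401448) read 12.57 and 11.38 against 13.08 and 11.03, a difference of -0.08 (SE 0.94), so that the probes of this gene differed in sign. Both were opposite in the experiments, and the brighter read -0.15 without siControl of experiment 2. Wherever an array is left out, the arrays left are unequal in number between experiments. The value then also holds part of the difference between experiments.

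Chrnb1, the beta subunit (A_51_P475342, chr11:69598674-69599242 of mm9, minus strand), read 10.47 and 9.84 in siFxr1 and 9.95 and 9.28 in siControl. It was higher in siFxr1 by 0.52 and 0.55 within the experiments, but the conditions overlapped. The mean difference of 0.54 (SE 0.39, limma adjusted p = 0.975) did not pass the test. Its SE was 0.19 with the experiment as a block (limma adjusted p = 0.582). Chrnd, the delta subunit (A_55_P2110548, chr1:89096585-89096644, plus strand), read 13.95 and 13.64 in siFxr1 and 13.88 and 11.56 in siControl. Here 1 sample stood apart: siControl of experiment 2 was low, and the other 3 lay close together. The difference was 1.07 (SE 0.93, limma adjusted p = 0.975), made of 0.06 in experiment 1 and 2.08 in experiment 2, and it was -0.09 without that sample.

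Chrng, the fetal gamma subunit (A_51_P288010), read 10.33 and 8.82 in siFxr1 and 9.94 and 8.07 in siControl. It was higher in siFxr1 within both experiments, by 0.39 and 0.75, but the experiments differed by more than the conditions, and the mean difference was 0.57 (SE 0.95, limma adjusted p = 0.976). With the experiment as a block the SE was 0.22 (limma adjusted p = 0.597). Without siControl of experiment 2 the mean difference was -0.37, and without siFxr1 of experiment 1 it was -0.19. The arrays left are then unequal in number between experiments, which differed by 1.69 for this gene.

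Chrne, the adult epsilon subunit, has 1 probe, which read 2.79 and 2.61 in siFxr1 and 2.62 and 2.61 in siControl. These values lay under the lowest signal marked as above background on each array, 4.19 to 5.36, so no fold is given. The fetal subunit was thus measured on all 4 arrays and the adult subunit on 0, and a change of one relative to the other cannot be given from these probes.

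Agrn encodes agrin. Its brighter probe (A_55_P2009121, chr4:155539415-155539474 of mm9, minus strand) read 12.60 and 13.43 in siFxr1 and 13.06 and 13.37 in siControl, a difference of -0.20 (SE 0.38). Lrp4, the agrin receptor (A_55_P1967168, chr2:91353566-91353625, plus strand), read 11.35 and 11.38 in siFxr1 and 12.06 and 11.13 in siControl, a difference of -0.23 (SE 0.39). In both genes siFxr1 was the lower in experiment 1 and the higher in experiment 2. Without siFxr1 of experiment 1 the difference of Agrn was 0.22, and without siControl of experiment 1 that of Lrp4 was 0.24.

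Musk, the receptor kinase, has 2 probes. The brighter (A_55_P2130600, chr4:58387070-58387129 of mm9, plus strand) read 13.01 and 12.75 in siFxr1 and 12.98 and 12.15 in siControl, a difference of 0.32 (SE 0.37). It was -0.10 without siControl of experiment 2. The other (A_51_P334419, which joins blocks within chr4:58386538-58390272) read 9.50 and 9.61 against 9.39 and 9.15, a difference of 0.28 (SE 0.18), and here the siFxr1 arrays lay above both siControl arrays.

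Dok7, the cytoplasmic activator of MuSK (A_55_P2127258, chr5:35430414-35430473 of mm9, plus strand), read 9.07 and 5.97 in siFxr1 and 9.10 and 5.80 in siControl. The conditions lay within 0.2 of each other in each experiment, at -0.03 and 0.17, and the mean difference was 0.07 with an SE of 1.78. With the experiment as a block the SE was 0.20. Without siFxr1 of experiment 1 the difference was -1.48, and without siControl of experiment 2 it was -1.58, since the arrays left are then unequal in number between experiments. Rapsn, which encodes the clustering protein rapsyn (A_55_P2087322, chr2:90885826-90885885, plus strand), read 16.28 and 16.43 in siFxr1 and 16.59 and 16.77 in siControl. Both siFxr1 arrays lay below both siControl arrays, by -0.31 and -0.34 within the experiments, and the difference of -0.33 (SE 0.17, limma adjusted p = 0.975) did not pass the test.

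Counted over the set, 0 of the 13 probes were called between siFxr1 and siControl, at a B value (log odds of a change) above 0 or at a limma adjusted p under 0.05, as were 0% of all probes by either rule. The probes of Fxr1 were not called either, so the lack of a call does not show that a probe was unchanged. At an unadjusted p under 0.05, 0 of 13 passed, against 4.96% of all probes. Among the 11 probes above background, 2 had conditions that did not overlap, the second Musk probe and Rapsn, against 29.8% of the 23500 probes so measured. Higher in siFxr1 in both experiments were 5 of 11, against 32.7%, and lower in both was 1 of 11, against 31.1%. The remaining 5 were opposite. The median difference of the 9 genes was 0.24, beside 0.01 over all probes above background, and it was -0.03 in experiment 1 and 0.54 in experiment 2. With the experiment as a replicate block, 0 of the 13 were called, as were 0% of all probes, and 0 had an unadjusted p under 0.05, against 8.85% of all probes.

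**Figure D3:**
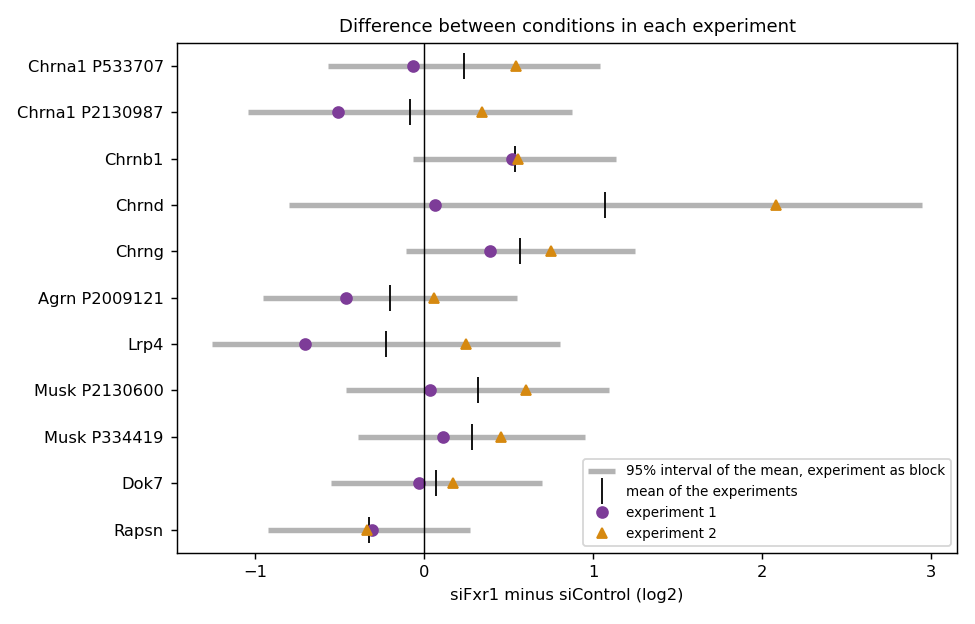
siFxr1 minus siControl (log2) for the 11 probes above background, in experiment 1 (circle) and experiment 2 (triangle), with the mean as a black tick and its 95% interval with the experiment as a block in grey. Every interval includes 0, and the experiments of Chrnd lie farthest apart, at 0.06 and 2.08.

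The experiments differed more than the conditions in several of these genes. Dok7 was higher in experiment 1 by 3.20 (SE 0.20), a 9.19-fold difference in normalized signal, and by 3.101 within siFxr1 and 3.300 within siControl. Only 23 of the 23500 probes above background had a larger difference in this direction. The size of the Dok7 difference depended on the processing. It ranged from 2.01 to 3.20 over the 11 alternative settings run for it, and was 2.01 in the authors' normalized table. Chrng was higher in experiment 1 by 1.69 (SE 0.22), a 3.22-fold difference, at 1.51 and 1.87 within the conditions. The second Chrna1 probe differed by 1.62 (SE 0.31) and its brighter probe by 0.47 (SE 0.26). Chrnd differed by 1.32 (SE 0.60), but by 0.31 within siFxr1 and 2.33 within siControl, where the low sample of experiment 2 lies. Chrnb1 differed by 0.65 (SE 0.19) and Lrp4 by 0.45 (SE 0.33). The brighter Musk probe differed by 0.54 (SE 0.25) and the other by 0.07 (SE 0.22). Agrn ran the other way, at -0.57 (SE 0.24), and Rapsn differed by -0.17 (SE 0.19). The sign of Rapsn turned to 0.45 with arrays scaled to their 75th percentile.

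At an adjusted p under 0.05, 0 of the 13 probes were called between experiments, as were 0% of all probes, and the adjusted p was 0.108 for Dok7 and 0.114 for Chrng. This call depended on the processing. The adjusted p of Dok7 was between 1.36e-07 and 0.04997 over the 11 alternative settings run for it and was under the threshold in all 11, and that of Chrng was between 0.000434 and 0.0609 and under it in 10. By the B value 1 of 13 was higher in experiment 1, Dok7, against 0.341% of all probes. At an unadjusted p under 0.05, 4 of 13 were higher in experiment 1, the second Chrna1 probe, Chrnb1, Chrng and Dok7, against 9.79%. Without overlap between experiments, 7 of 11 were higher in experiment 1, against 31.7%, and 1 of 11 was lower, Agrn, against 25.6%. The myotube markers moved in the same direction, as given above, and their part in these differences was not tested.

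**Figure D4:**
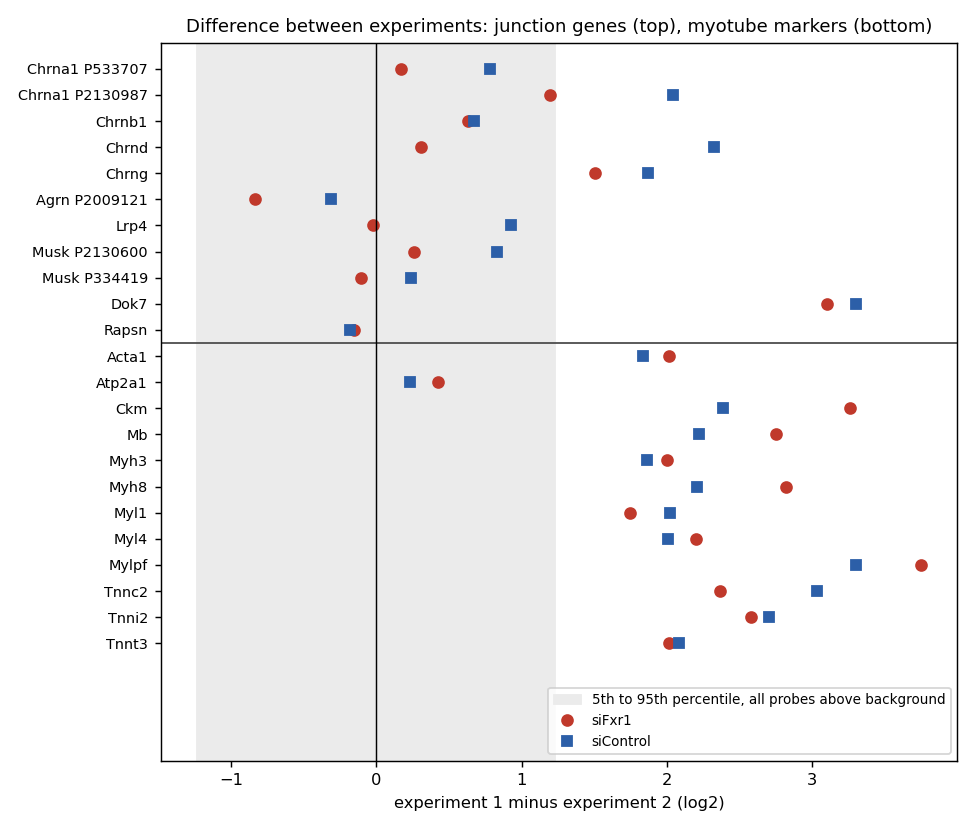
Experiment 1 minus experiment 2 (log2) within siFxr1 (circles) and siControl (squares), for the 11 probes above background and for 12 myotube markers. The 5th to 95th percentile of all probes above background, -1.23 to 1.23, is in grey. This band is of the difference averaged over both conditions, and differences within a single condition can spread more widely. Dok7 and Chrng lie beyond the grey band in both conditions, and Agrn and Rapsn lie below 0.

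The genes whose profile over the 4 arrays was closest to that of Chrng, by root mean square distance among 13469 genes, were Dcun1d4 (0.029), Prps1 (0.042), Gm7278 (0.058), C5ar2 (0.059) and Lmo4 (0.061). All 5 were higher in experiment 1, by 1.62 to 1.75, and with 4 points a close profile is a weak description.

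Other genes of the junction were taken from lists, with the brightest probe for each gene, and 0 genes of any list were called between conditions. Of 11 other nicotinic subunits, mostly neuronal, 2 were above background on all arrays, Chrna2 with a difference of -0.39 and Chrnb4 with 0.00. Of 24 signalling and scaffold genes, 22 were above background, 6 higher and 8 lower in siFxr1 in both experiments, with a median of -0.09. Among the larger differences were those of Pak1, a kinase downstream of Rac (-0.78), and the adaptor Dok1 (-0.48). Of 14 genes of the synaptic matrix and its enzymes, 11 were above background, 4 higher and 2 lower, with a median of 0.16. The laminin Lamb2 differed by -1.21, butyrylcholinesterase (Bche) by 0.83 and nidogen (Nid1) by 0.64. Experiments 1 and 2 gave -0.63 and -1.79 for Lamb2, 0.36 and 1.29 for Bche, and 0.20 and 1.07 for Nid1. The probe of acetylcholinesterase (Ache) was not above background.

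Of 18 regulators of receptor genes, 14 were above background, 4 higher and 6 lower in siFxr1 in both experiments, with a median of -0.07. The Ets factors Etv4 and Etv5 differed by 0.96 and 0.84 and Myod1 by -0.45, none past the test. In experiments 1 and 2 the differences were 0.51 and 1.41 for Etv4, 0.22 and 1.46 for Etv5, and -0.17 and -0.73 for Myod1. For Etv5, siControl of experiment 2 was the low sample, at 9.86. Myog, the myogenin gene, differed by 2.12 between experiments and by -0.10 between conditions. Of 11 membrane partners, 9 were above background, 4 higher and 2 lower, with a median of 0.18. The potassium channel Kcnj2 differed by 0.57, the integrin Itgb1 by 0.53 and caveolin-3 (Cav3) by 0.50. Cav3 was opposite in the experiments, at 1.29 in experiment 1 and -0.29 in experiment 2.

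**Figure D5:**
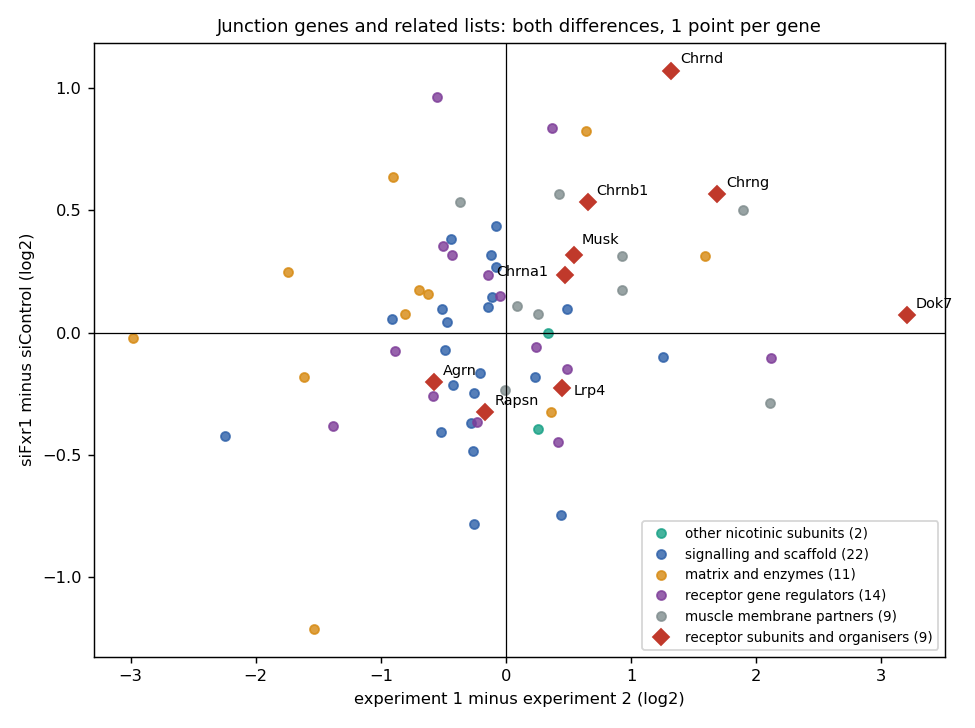
siFxr1 minus siControl against experiment 1 minus experiment 2 (both log2), 1 point per gene above background, for the 9 genes of the set (diamonds, named) and the 5 related lists (circles). Dok7 lies farthest right, at 3.20 between experiments and 0.07 between conditions, and Chrnd highest, at 1.07 between conditions.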

How the data were processed

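RNA of 4 C2C12 samples was measured on Agilent one-colour mouse arrays, and samples were grouped by their labels. The authors deposited each spot's intensity from Agilent Feature Extraction 10.7.3.1, background-corrected within the array, and a table of quantile-normalized intensity. In R 4.3.3 with limma 3.58.1, corrected intensities were log2-transformed and quantile-normalized, outlier spots were masked, and replicate spots were averaged by probe. The software's mark for a spot well above background had to be present on a share of at least 0.5 of a probe's spots. limma was fitted with condition as the only term, and the experiments were compared with condition as a second term. Positions are the array's, on mm9.

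Samples with the same replicate number belong to 1 experiment and 1 slide by their labels and are therefore pairs. Over 25540 probes, their departures from the mean of their condition had a correlation of 0.714. Members and lists were chosen with earlier results of these data known. The text names all members, called list genes, up to 3 of the largest differences of each list, and the 5 profiles closest to Chrng. Myog, Ache and some markers were named beyond this rule after their values were seen. Scripts were tested on simulated data. Alternatives were other scaling, background correction and filters, the authors' table, a trend in the variance prior, the 4 ratios, the block, and each array left out. After seeing the data, 8 combinations were added. Some items are not reported here.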

Additional observations from a re-analysis of the deposited data

How the results depend on the processing

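Between conditions, 0 of the 13 probes were called under each alternative run, including the replicate block. The count over all probes did move from 0. It was 354 by B value and 280 by adjusted p, of 25540 probes, with the block and dim probes left out. With the 4 ratios of a siFxr1 to a siControl array as observations it was 1107 and 1064. These ratios share arrays and are not independent observations, so that setting can overstate the number of probes called. With combinations chosen after seeing the data, the block gave 406 by B value with normexp, 403 with no background correction, 345 (105 by adjusted p) with median minus background, and 590 (156) with the authors' table. The Chrna1 difference was -0.084 by its other probe, and that of Chrne, at background, was -0.023 with 75th percentile scaling.

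With 1 array left out, the difference ranged from -0.15 to 0.63 for Chrna1, -0.092 to 2.24 for Chrnd, -0.37 to 1.502 for Chrng, -0.0078 to 0.18 for Chrne, -0.62 to 0.22 for Agrn, -0.69 to 0.24 for Lrp4, -0.096 to 0.73 for Musk and -1.58 to 1.72 for Dok7. The difference of the log2 ratio of Chrng to Chrne, whose Chrne term is background, so that it restates Chrng, ranged from -0.44 to 1.41. Chrnb1, at 0.20 to 0.87, and Rapsn, at -0.42 to -0.23, kept their sign with each array left out. All these ranges also hold part of the difference between experiments, since the arrays left are unequal in number between experiments.

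Between experiments, the count over all probes by adjusted p (and by B value) was 0 (664) in the fit reported and 5846 (3202) with 75th percentile scaling, 4471 (1921) with normexp, 4197 (1819) with no background correction, 3686 (1717) with median minus background, 5450 (2240) with the authors' table, 4342 (1284) with dim probes left out, and 308 by adjusted p with a trend. In that order, the members called were 4 (2), 3 (2), 3 (2), 3 (2), 4 (2), 3 (2) and 1 (2), against 0 (1). These counts are of 55681 probes and 13 member probes. With dim probes left out, here and in the combinations that follow, they are of 25540 probes and 11 member probes. Dim probes left out together with each background setting, chosen after seeing the data, gave 4907 (1479) with normexp, 5031 (1522) with no correction, 5809 (2037) with median minus background and 5838 (2006) with the authors' table, and 5 (2), 5 (2), 5 (3) and 5 (3) members. The cause was not tested. Scaling to the 75th percentile moved the median of all probes from 0.02 to 0.23 and Rapsn to 0.45, and Chrne was -0.0052 with no background correction and -0.0085 in the authors' table. The comparison of experiments could not be fitted with an array left out, since no residual degrees of freedom remain. With 4 arrays, precision is limited by their number.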
